A study of Mus musculus with 6 samples.

Results

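The 36 genes described here encode the enzymes that build cholesterol and fatty acids, the proteins that control their transcription, and carriers that move sterols. They were chosen by name: a member is a row whose gene name equals 1 of 36 symbols in the count files of all 6 libraries, and it was tested where its counts summed to more than 500 over those libraries. All 36 were found among 34745 genes, and 35 of them passed that filter, as did 10046 genes in all. The ATP-binding cassette transporter Abcg1 was the member that did not pass, with 0 counts in every library.

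RNA was sequenced from 889, a murine lung cancer cell line of C57BL/6 background grown in DMEM with serum. Both groups carried Cas9 and an sgRNA from a lentiviral vector. The 3 sgcontrol libraries came from cells with a control sgRNA, and the 3 libraries labelled sgkiaa1522 came from cells with an sgRNA against kiaa1522, which the labels call KIAA1522-downregulated. Which kiaa1522 sgRNA the sequenced cells carried, whether they were a pool or a clone, and whether the replicates were separate cultures are not given in the sources used here, so p-values measure the spread between these libraries, which may be technical.

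The targeted gene C77080, the mouse kiaa1522 gene at chr4:129219578-129261404 on the minus strand of GRCm38, was read at 127, 129.7 and 124 normalized read counts (CPM, counts scaled to the library size) in sgcontrol 1, 2 and 3. It was read at 210.4, 203 and 216 CPM in the libraries labelled sgkiaa1522 1, 2 and 3. Its mRNA was thus higher under the sgkiaa1522 label, with a log2 fold change of 0.73 (SE 0.057, adjusted p = 9.10e-05, edgeR quasi-likelihood test), and every direction given for that group rests on the label. KIAA1522 protein is not measured by these files. Library totals ran from 12220001 counts in sgkiaa1522 1 to 18609376 in sgkiaa1522 2. One library stood apart from its group. Between sgcontrol 1 and the other controls, chi-square over its degrees of freedom was 23.4 and 30.7, against 12.3 to 12.8 for the remaining pairs within a group, so calls and fold changes that turn on it are given both ways. The epithelial markers Krt8, Krt18, Krt19 and Cdh1 were read in every library and were lower under the sgkiaa1522 label. All 4 of the 4 tested markers were called, against 26.3% of all tested genes called lower. Krt18 was only just called (adjusted p = 0.0496, edgeR quasi-likelihood test), and its groups overlapped. Summed levels of the epithelial list were 3810 to 4575 CPM against 3218 to 3498 CPM, whereas Epcam had 0 counts throughout. All 5 adipocyte markers, whose cells make much fatty acid, stayed below 1 CPM in every library, with Lep at 0. Summed endothelial markers lay between 0.647 and 1.49 CPM over all 6 libraries. The leukocyte markers Adgre1 and Cd3e were at 0, while the leukocyte list summed to 2.64 to 6.31 CPM in sgcontrol and 11.6 to 14.2 CPM in the other group, of which Cd68 was the single marker called higher. The fibroblast list summed to 467 to 486 CPM in sgcontrol and 167 to 198 CPM under the sgkiaa1522 label, mostly through Col1a2. The alveolar type 2 list summed to 42.5 to 85.3 CPM and 23.7 to 57.3 CPM, with Nkx2-1 at 55.7, 59.1 and 13.6 CPM in sgcontrol and 10.9, 9.49 and 39.5 CPM in the other group, where replicate 3 of each group lay apart from its group. Of that list the surfactant gene Sftpb was called lower (adjusted p = 0.0115). The part of these marker shifts in the results on lipid genes was not tested.

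Cholesterol is made from acetyl-CoA in a long chain of reactions. A first arm runs through mevalonate and isoprenoid diphosphates to squalene, and a second arm closes squalene into lanosterol and trims it to cholesterol. Fatty acid synthesis starts from the same acetyl-CoA, which acetyl-CoA carboxylase and fatty acid synthase turn into palmitate for elongases and desaturases to modify. The genes of both routes are classical targets of the sterol regulatory element-binding proteins (SREBPs). These are membrane-bound factors that SCAP escorts from the endoplasmic reticulum to the Golgi for cleavage when sterols are low, and that INSIG proteins hold back when sterols are plentiful. Liver X receptors (LXRs) sense oxysterols and raise the transcription of sterol exporters. Proliferating tumor cells need both products for their membranes.

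In the libraries labelled sgkiaa1522 the sterol enzymes were lower almost along the whole chain, whereas acetyl-CoA carboxylase, fatty acid synthase and the late-endosomal sterol carrier Npc1 were higher. In bulk RNA, a change in the share of cells that express a gene and a change in RNA per cell cannot be told apart. Of the 35 tested members, 22 were lower at an adjusted p of at most 0.05 (62.9%, against 26.3% of all tested genes), 4 were higher (11.4%, against 26.3% of all tested genes) and 9 were not called. The 22 lower members were Acat2, Hmgcs1, Mvk, Pmvk, Idi1, Fdps, Fdft1, Sqle, Lss, Cyp51, Tm7sf2, Nsdhl, Hsd17b7, Ebp, Sc5d, Srebf1, Srebf2, Scap, Insig1, Stard4, Scd2 and Fads2. The 4 higher members were Mvd, Npc1, Acaca and Fasn. The median log2 fold change of the tested members was -0.28, beside -0.0067 over all tested genes. The threshold stated in the study's methods, here called the study's threshold, also asks that the log2 fold change be 1 or more in either direction. It was passed by 3 lower members, Idi1, Fdps and Lss (4.34% of all tested genes passed it in that direction), and by 0 higher members (2.74% of all tested genes). With all 6 libraries, no member reached a log2 fold change of 1 upward in edgeR or in DESeq2, whatever its p. Without sgcontrol 1, 5 lower and 2 higher members passed it in edgeR, the latter Npc1 and Acaca at 1.01 each, and without sgkiaa1522 1, 1 lower and 0 higher members did. No member passed a stricter rule that the study also names, a log2 fold change over 2 in size with an unadjusted p under 0.05, against 1.10% of all tested genes. The same 22 lower and 4 higher members were also those whose libraries did not overlap between groups, which held downward for 31.1% and upward for 30.6% of all tested genes.

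**Figure D1:**
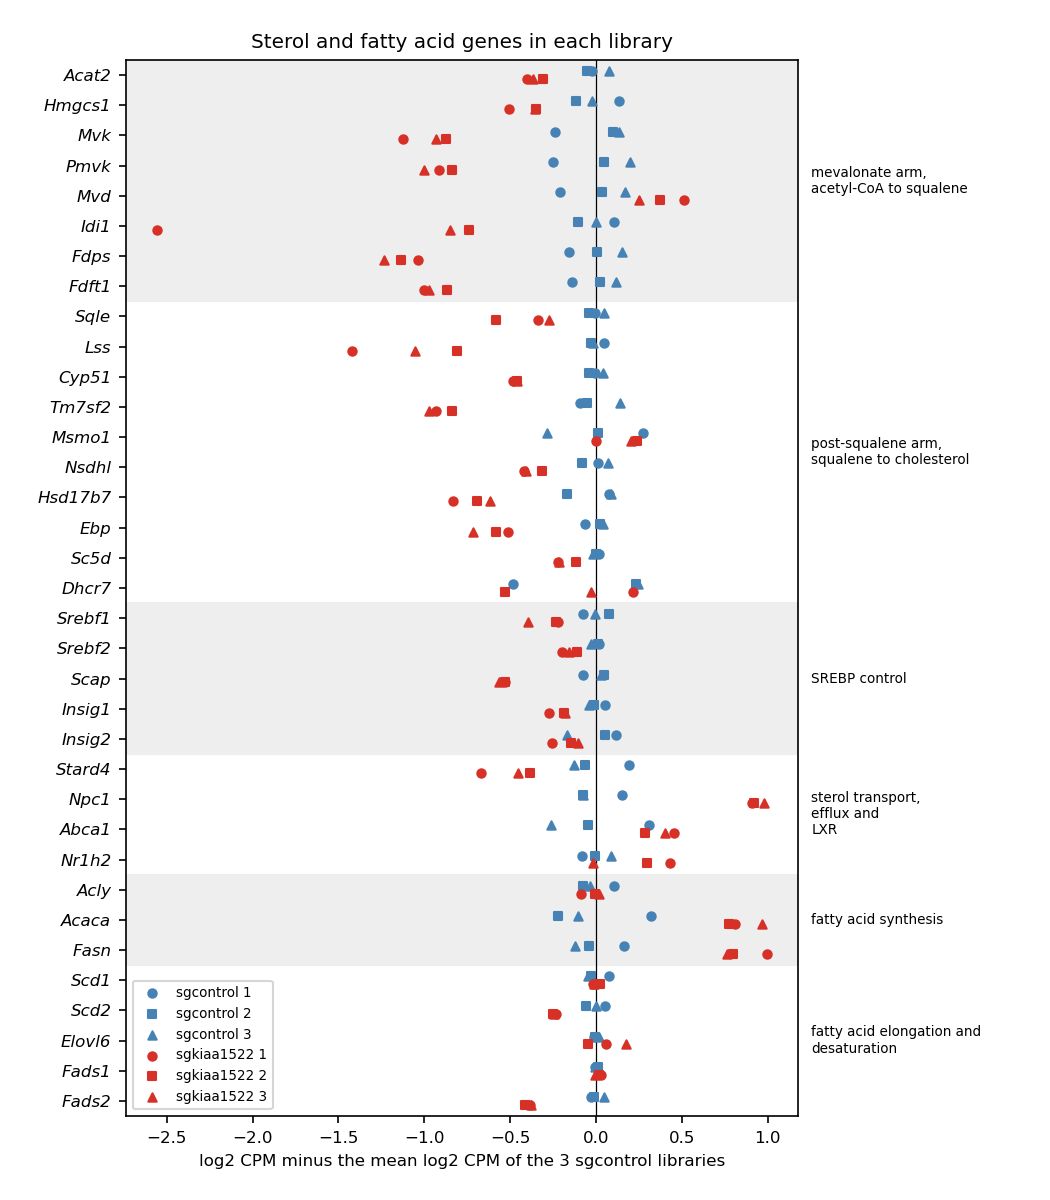
CPM of each tested member in each library, as log2 difference from the mean log2 CPM of the 3 sgcontrol libraries, in pathway order and shaded by role. Blue symbols are sgcontrol 1 to 3 and red symbols the libraries labelled sgkiaa1522 1 to 3. Most sterol enzymes have all red symbols left of the blue ones, Idi1 in sgkiaa1522 1 lies far to the left, and Npc1, Acaca and Fasn have all red symbols to the right.

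The promoters of these genes are shown for 4 members that span the pattern: Hmgcs1 and Lss, which fell, and Mvd and Fasn, which rose. The 250 bases before the RefSeq start (GRCm38.p6) were read for the 27 members with an entry in the promoter table used. Members without an entry are Fdps, Fdft1, Sqle, Stard4, Npc1, Abcg1, Scd1, Scd2 and Fads1. Capitals mark matches on either strand to a sterol response element, TCACNCCAC, and to the CCAAT box, CCAAT, which do not overlap each other in these stretches. In Fasn, 2 CCAAT matches on opposite strands overlap. GC boxes and E-boxes, named further on, are not marked.
Hmgcs1 (chr13:119690101-119690350, plus strand): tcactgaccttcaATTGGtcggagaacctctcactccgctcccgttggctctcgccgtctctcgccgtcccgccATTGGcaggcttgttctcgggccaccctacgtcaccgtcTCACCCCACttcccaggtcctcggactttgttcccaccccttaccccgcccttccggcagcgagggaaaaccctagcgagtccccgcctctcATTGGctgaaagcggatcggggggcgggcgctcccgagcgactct
Lss (chr10:76531355-76531604, plus strand): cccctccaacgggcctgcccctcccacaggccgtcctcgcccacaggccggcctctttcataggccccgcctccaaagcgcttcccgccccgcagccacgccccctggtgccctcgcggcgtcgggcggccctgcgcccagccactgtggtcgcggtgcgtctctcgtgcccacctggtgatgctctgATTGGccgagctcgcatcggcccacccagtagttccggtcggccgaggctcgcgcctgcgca
Mvd (chr8:122443423-122443672, minus strand): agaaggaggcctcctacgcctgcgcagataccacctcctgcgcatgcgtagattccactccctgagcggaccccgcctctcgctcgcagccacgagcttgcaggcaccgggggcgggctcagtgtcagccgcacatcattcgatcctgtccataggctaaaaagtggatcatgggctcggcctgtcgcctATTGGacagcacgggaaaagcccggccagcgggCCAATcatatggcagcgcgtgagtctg
Fasn (chr11:120824548-120824797, minus strand): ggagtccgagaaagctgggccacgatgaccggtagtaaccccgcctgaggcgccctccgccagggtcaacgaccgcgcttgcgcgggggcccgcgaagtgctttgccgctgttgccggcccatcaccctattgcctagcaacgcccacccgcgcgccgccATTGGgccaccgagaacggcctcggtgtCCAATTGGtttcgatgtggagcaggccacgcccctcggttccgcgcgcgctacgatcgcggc
A gene counted as holding a motif if any of its listed starts had it. SREBPs bind sterol response elements, of which only the exact letters TCACNCCAC were searched for. These letters were found in 1 of the 27 members, Hmgcs1, where TCACCCCAC begins 137 bases before the start. They were found in 1.22% of the 27025 genes in the table. Other forms of the element were not searched for, so the other members are not shown to lack one. CCAAT boxes bind the factor NF-Y, a usual partner of SREBPs. They were found in 19 of the 27 members (70.4%) and in 37.5% of all genes. Mvk, the mevalonate kinase gene, had 5 of them. The GC box GGGCGG, bound by SP factors, was found in 22 of 27 members (81.5%) and 35.4% of all genes, and the E-box CACGTG in 6 of 27 (22.2%) and 6.86% of all genes. By call, CCAAT lay in 14 of the 17 lower members with an entry and in 2 of the 3 higher ones, Mvd and Fasn but not Acaca. The GC box lay in 16 of the 17 lower members, all but Pmvk, and in 1 of the 3 higher ones, Mvd, and the E-box in 4 lower and 0 higher members. Of the 7 members not called, 3 held CCAAT, 5 the GC box and 2 the E-box. The start listed for Acaca lies 65766 bases inside the gene as annotated, so its window is not that of the first annotated start. Other members also had such starts. The CCAAT matches of Dhcr7 came only from a start 7069 bases inside, and the single start of Tm7sf2 lies 523 bases inside. The GC boxes of Srebf1 came only from starts 1954 and 12110 bases inside, and those of Insig2 from starts 4565 and 4911 bases inside. A match describes letters in the window only, and the shares were not tested. The shares of all genes were taken whatever their expression, whereas all 27 members with an entry had passed the filter on counts. The 2 kinds of share therefore differ in expression as well as in membership.

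In the mevalonate arm, 7 of the 8 enzymes were lower and 1, Mvd, was higher, against 26.3% of all tested genes each way. The median log2 fold change of the arm was -0.94. The steepest falls were at Idi1, Fdps, Mvk, Fdft1 and Pmvk, while the first steps, Acat2 and Hmgcs1, changed less. Fdps (chr3:89093588-89101959), farnesyl diphosphate synthase, makes the building block of squalene and of prenyl groups. It was read at 161, 179.6 and 199 CPM in sgcontrol 1, 2 and 3 and at 87.4, 81.6 and 76.1 CPM in sgkiaa1522 1, 2 and 3. Its groups lay far apart, with a log2 fold change of -1.14 (SE 0.094, adjusted p = 1.10e-04). Gm43738, a gene on the same strand, shares 26.7% of the exon bases of Fdps, so part of these reads could have been assigned to either.

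Idi1 (chr13:8885501-8892451), isopentenyl-diphosphate isomerase, was among the members that fell most and varied widely between libraries. Fdps fell more without sgkiaa1522 1 (-1.19) or sgcontrol 1 (-1.22), and Lss with the length and GC trend removed (-1.21). Its levels were 94.1, 81.4 and 87.4 CPM in sgcontrol and 14.8, 52.3 and 48.5 CPM in the libraries labelled sgkiaa1522. Replicate 1 of the latter lay far below replicates 2 and 3, which themselves lay below every sgcontrol library. The log2 fold change was -1.17 with an SE of 0.39 and an adjusted p of 0.0362. Without sgkiaa1522 1 it was -0.80 (adjusted p = 0.00144), short of the study's threshold. Without any one of the sgcontrol libraries it stayed between -1.23 and -1.12, but the adjusted p rose to between 0.0668 and 0.0726.

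Both kinases that phosphorylate mevalonate fell. Mvk was read at 27.9, 35.3 and 36.2 CPM in sgcontrol and 15.1, 17.9 and 17.3 CPM in the other group, a log2 fold change of -0.98 (SE 0.13, adjusted p = 7.02e-04). Pmvk, the second kinase, was read at 68.9, 84.6 and 94.0 CPM and 43.3, 45.8 and 40.9 CPM, a log2 fold change of -0.93 (adjusted p = 6.72e-04). Sgcontrol 1 was the lowest control library for both genes, and without it they passed the study's threshold, at -1.09 for Mvk and -1.05 for Pmvk. The difference between the kinases was not tested. Fdft1, squalene synthase, which commits farnesyl diphosphate to sterols, was read at 112, 125 and 134 CPM in sgcontrol and at 61.5, 67.4 and 62.7 CPM in the libraries labelled sgkiaa1522. Its log2 fold change was -0.95 (SE 0.085, adjusted p = 1.39e-04) and was -1.02 without sgcontrol 1. The protease gene Ctsb on the opposite strand shares 18.3% of the exon bases of Fdft1, and whether the counting used strand is not given in the sources used here.

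The entry of the arm moved less. Acat2, the cytosolic thiolase that joins acetyl-CoA units, had a log2 fold change of -0.36 (SE 0.064, adjusted p = 0.00285), and Hmgcs1, the HMG-CoA synthase, one of -0.41 (SE 0.084, adjusted p = 0.00510). In both, the highest library labelled sgkiaa1522 lay below the lowest sgcontrol library. Gm48342 on the opposite strand shares 12.1% of the exon bases of Hmgcs1. Mvd (chr8:122433601-122443422), the decarboxylase that yields isopentenyl diphosphate, went the other way between neighbours that fell. It was read at 32.8, 39.0 and 42.8 CPM in sgcontrol and 54.1, 49.2 and 45.1 CPM in sgkiaa1522 1, 2 and 3. The groups came close, with sgcontrol 3 just under sgkiaa1522 3, and the log2 fold change was 0.37 (SE 0.12, adjusted p = 0.0328). Without sgcontrol 1 it was 0.27 (adjusted p = 0.0561), and it was also not called without sgcontrol 2 (adjusted p = 0.0757), sgkiaa1522 1 (0.0993) or sgkiaa1522 2 (0.0764).

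After squalene, 8 of the 10 enzymes were lower and none was higher, against 26.3% of all tested genes each way. The median log2 fold change of these enzymes was -0.43. Lss (chr10:76531588-76557138), lanosterol synthase, which closes the sterol rings, fell most. It was read at 106, 101 and 101 CPM in sgcontrol 1, 2 and 3 and at 38.3, 58.6 and 49.5 CPM in sgkiaa1522 1, 2 and 3. Controls were tight and the other group was spread, with sgkiaa1522 1 lowest, and the log2 fold change was -1.07 (SE 0.14, adjusted p = 7.13e-04). Without sgkiaa1522 1 it was -0.93, short of the study's threshold. Tm7sf2, a sterol reductase, fell by nearly as much at -0.91 (adjusted p = 4.46e-04), from a low level of 19.6 ± 1.73 CPM (SD, n = 3) in sgcontrol. Vps51 on the same strand shares 12.1% of its exon bases.

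The other enzymes of that arm fell less. Hsd17b7, a keto reductase, changed by -0.71, and Ebp, the sterol isomerase, by -0.60 on the log2 scale (adjusted p = 0.00166 and 8.62e-04). Cyp51, the lanosterol demethylase, had tight groups, with 172, 167 and 177 CPM in sgcontrol and 123, 125 and 125 CPM in the other group, and a log2 fold change of -0.47 (SE 0.055, adjusted p = 4.41e-04). Sqle, squalene epoxidase and a rate-limiting step, changed by -0.39 (adjusted p = 0.00710), and Nsdhl, a sterol dehydrogenase, by -0.38 (adjusted p = 0.00597). Sc5d, the lathosterol desaturase, was just inside the p threshold with 104, 103 and 101 CPM against 88.0, 94.9 and 88.4 CPM, a log2 fold change of -0.18 and an adjusted p of 0.0374. It was one of the smallest called falls, and its call was lost with DESeq2 (adjusted p = 0.0510), the likelihood ratio test (0.0900), either other filter (0.102 with every gene of at least 1 count, 0.0510 with filterByExpr), the replicate block (0.121) and without any single library but sgcontrol 1 (0.0536 to 0.136).

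Msmo1 and Dhcr7 were the sterol enzymes not called, and both varied widely among libraries of one group. Msmo1, the methylsterol monooxygenase, was read at 168, 140.0 and 114 CPM in sgcontrol and 139, 164 and 160.4 CPM in the libraries labelled sgkiaa1522. Dhcr7, the reductase of the last step, was read at 33.1, 54.4 and 54.9 CPM and 53.6, 32.0 and 45.4 CPM. The groups overlapped in both, with log2 fold changes of 0.13 (SE 0.14, adjusted p = 0.444) and -0.12 (SE 0.24, adjusted p = 0.690). Without sgcontrol 1 they were 0.28 (adjusted p = 0.0726) and -0.34 (adjusted p = 0.188). Leaving out each library in turn, Msmo1 ran from -0.00034 without sgcontrol 3 to 0.28, and Dhcr7 from -0.34 to 0.060 without sgkiaa1522 2, so neither kept its sign. A missed threshold does not show that either was the same in both groups.

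Over the 18 sterol enzymes, 15 were lower and 1 higher, against 26.3% of all tested genes each way. Their median log2 fold change was -0.54. The same libraries were not lowest throughout. Sgkiaa1522 1, the shallowest library, was the lowest of its group for 11 of the 18 and the highest for 4, and sgcontrol 3 was the highest of its group for 13 of the 18.

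**Figure D2:**
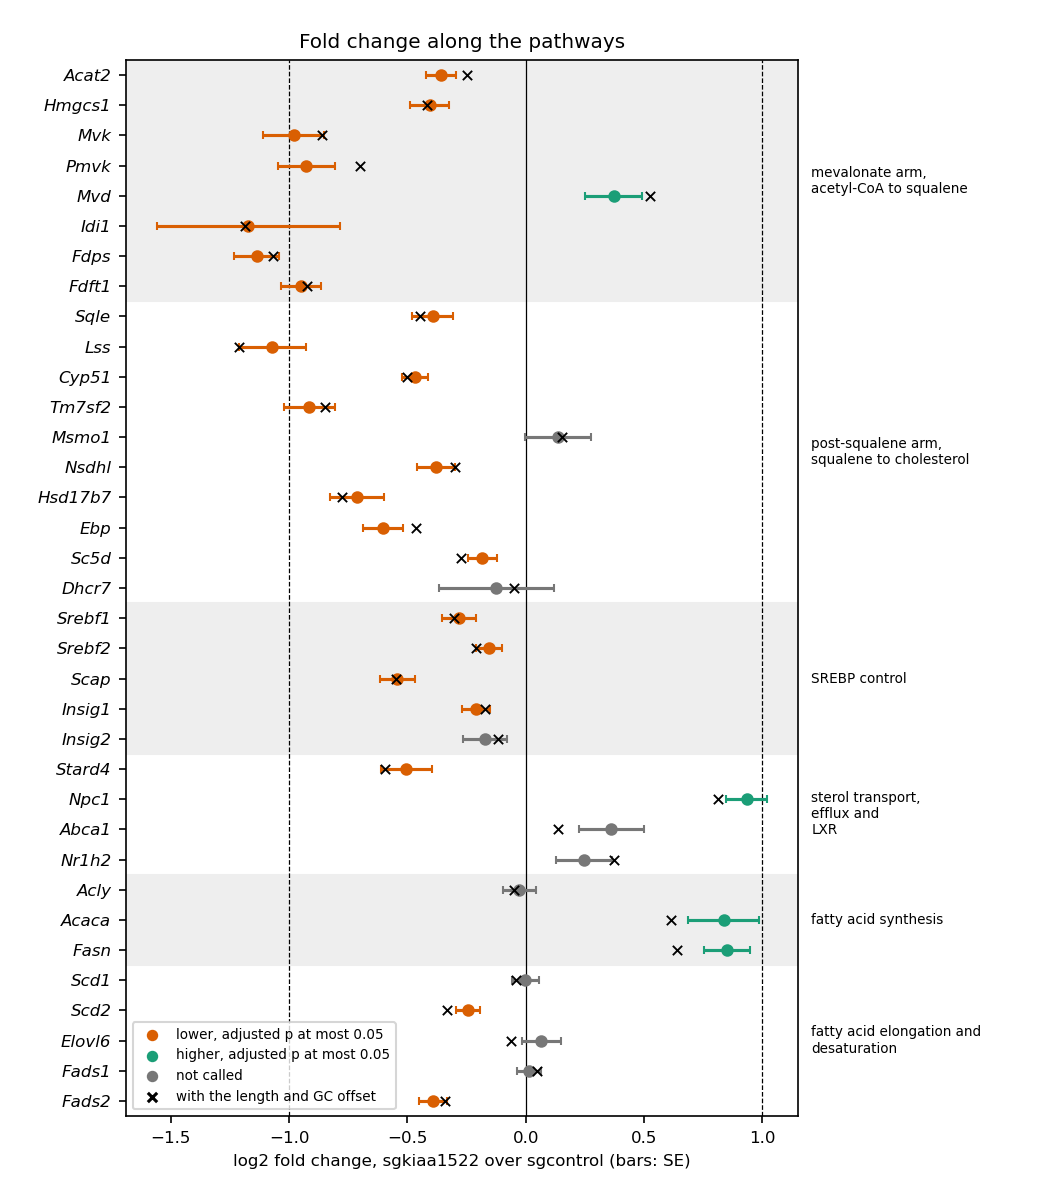
Log2 fold change of each tested member (points, bars are SE, n = 3 and 3) from edgeR, in pathway order, with crosses for the fit that removes a trend on transcript length and GC content. Dashed lines stand at log2 fold changes of -1 and 1. Idi1, Fdps and Lss lie beyond the left line, Mvd stands right of 0 among falling neighbours, and Npc1, Acaca and Fasn lie between 0.61 and 0.93 in both fits.

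The SREBP genes and their escorts were slightly lower, with 4 of 5 called, against 26.3% of all tested genes, and a median log2 fold change of -0.21. The likelihood ratio test and either other filter called 3 of 5, and the replicate block 2 of 5. Without sgcontrol 2, or without sgkiaa1522 3, 1 of 5 was called, Scap, and without sgkiaa1522 1 or 2, 2 of 5 were, Scap and Srebf1. Srebf2, which encodes the SREBP that serves sterol synthesis, was read at 532, 530.4 and 515 CPM in sgcontrol and 458, 487 and 472 CPM in the other group. Srebf1, which encodes the form that serves fatty acid synthesis, was read at 204, 226 and 213 CPM and 183, 182 and 163 CPM. The groups did not overlap in either gene and the shifts were small, with log2 fold changes of -0.16 (SE 0.053, adjusted p = 0.0406) and -0.28 (SE 0.072, adjusted p = 0.0130). The call of Srebf2 was lost in the likelihood ratio test (adjusted p = 0.106), with either other filter (0.105 with every gene of at least 1 count, 0.0588 with filterByExpr), with the replicate block (0.135) and without any single library but sgcontrol 1 (0.0528 to 0.127). That of Srebf1 was lost without sgcontrol 2 (adjusted p = 0.0507) and without sgkiaa1522 3 (0.0551). Scap, the escort and sterol sensor, fell most among these genes, from 58.9, 64.1 and 63.5 CPM to 43.0, 43.0 and 42.1 CPM. The 3 libraries labelled sgkiaa1522 lay within about 1 CPM of each other, and the log2 fold change was -0.54 (SE 0.073, adjusted p = 7.84e-04). An uncharacterized gene model on the opposite strand shares 13.2% of its exon bases.

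The INSIG genes encode the anchors that keep SCAP in the endoplasmic reticulum, and Insig1 is itself a target of SREBPs. Insig1 was read at 197, 188 and 185 CPM in sgcontrol and 158, 167 and 168 CPM in the libraries labelled sgkiaa1522, a log2 fold change of -0.21 (SE 0.059, adjusted p = 0.0189). It was not called with the replicate block (adjusted p = 0.0847), nor without sgcontrol 2, sgkiaa1522 1, 2 or 3 (0.0507 to 0.0650). Insig2 was read at 81.1, 77.6 and 66.5 CPM and 62.7, 67.8 and 69.6 CPM. Its groups overlapped through sgcontrol 3 and it was not called, with a log2 fold change of -0.17 (adjusted p = 0.158); without sgcontrol 3 the value was -0.26 and the adjusted p 0.0423. The log2 ratio of Insig1 to Insig2 within a library differed by -0.044 between the groups (exact two-sided permutation test, p = 0.8), and that of Srebf1 to Srebf2 by -0.13 (exact two-sided permutation test, p = 0.2), as the libraries labelled sgkiaa1522 minus sgcontrol. With 3 libraries against 3, an exact permutation test cannot go below p = 0.1.

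The sterol carriers moved in opposite directions. Npc1 (chr18:12189692-12236400), which exports cholesterol from late endosomes, had the largest rise of all members with all 6 libraries. It was read at 45.4, 38.7 and 38.7 CPM in sgcontrol and at 76.6, 77.4 and 80.5 CPM in sgkiaa1522 1, 2 and 3. All libraries labelled sgkiaa1522 were well above all controls, with a log2 fold change of 0.93 (SE 0.088, adjusted p = 1.72e-04), and of 1.01 without sgcontrol 1. Stard4, a cytosolic sterol carrier and SREBP target, fell by contrast, at -0.50 (SE 0.11, adjusted p = 0.00635).

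Abca1 and Nr1h2, on the LXR side, were not called by edgeR's quasi-likelihood test, and the call of Abca1 changed with the fit. Abca1, a cholesterol exporter and LXR target, was read at 141, 111 and 95.2 CPM in sgcontrol and 157, 139 and 151 CPM in the other group. Sgcontrol 1 overlapped the libraries labelled sgkiaa1522, and the log2 fold change of 0.36 missed the threshold (SE 0.14, adjusted p = 0.0580). Abca1 was called by the DESeq2 Wald test at 0.37 (adjusted p = 0.0224), by edgeR's likelihood ratio test (adjusted p = 0.0379), with every gene of at least 1 count tested (adjusted p = 0.0322) and with the replicate block (adjusted p = 0.0447). Without sgcontrol 1 it was 0.52 (adjusted p = 0.00249), whereas without any other single library it was between 0.24 and 0.41 and not called (adjusted p between 0.0813 and 0.147), and with the length and GC trend removed it was 0.14 (adjusted p = 0.197). Nr1h2, which encodes LXR beta, was read at 56.7, 59.6 and 63.7 CPM and 80.7, 73.5 and 59.3 CPM, with sgkiaa1522 3 inside the control range, and had a log2 fold change of 0.25 (adjusted p = 0.119). It was called without sgkiaa1522 3, at 0.36 (adjusted p = 0.0239), and with the length and GC trend removed, at 0.37 (adjusted p = 0.0143). Abcg1, the partner exporter, was at 0 counts in all libraries, which allows up to 3 counts each, or 0.162 to 0.247 CPM, for counting error only.

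The transcripts of acetyl-CoA carboxylase and fatty acid synthase were higher, against the direction of most sterol enzymes. Fasn (chr11:120805846-120824547), fatty acid synthase, was read at 221, 192 and 181 CPM in sgcontrol 1, 2 and 3 and at 395, 343 and 335 CPM in sgkiaa1522 1, 2 and 3. All libraries labelled sgkiaa1522 lay well above all controls, and the log2 fold change was 0.85 (SE 0.098, adjusted p = 4.03e-04). Acaca (chr11:84129672-84401651), acetyl-CoA carboxylase, the committed step to malonyl-CoA, was read at 25.4, 17.4 and 18.9 CPM and 35.6, 34.8 and 39.7 CPM. Its log2 fold change was 0.84 (SE 0.15, adjusted p = 0.00267) and was 1.01 without sgcontrol 1, the highest control. Acly, ATP-citrate lyase, supplies cytosolic acetyl-CoA to both routes. It did not pass the test, with 209, 184 and 189 CPM in sgcontrol and 182, 193 and 196 CPM in the other group, a log2 fold change of -0.027 (SE 0.069, adjusted p = 0.762).

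Among elongases and desaturases, 2 of 5 were lower and none higher, against 26.3% of all tested genes each way. Scd2 and Scd1, stearoyl-CoA desaturases that make monounsaturated fatty acids, were the most abundant members per length, at 1274 ± 75.2 and 623 ± 42.8 TPM (counts scaled to exon length and depth; SD, n = 3) in sgcontrol. Scd2 was lower, from 2814, 2607 and 2716 CPM to 2304, 2275 and 2285 CPM, a log2 fold change of -0.25 (SE 0.051, adjusted p = 0.00532). Scd1 was read at 1250, 1163 and 1150 CPM and 1173, 1209 and 1179 CPM and was not called (adjusted p = 0.989). Fads2, a desaturase of polyunsaturated fatty acids, was lower at -0.39 (SE 0.058, adjusted p = 0.00121), while its neighbour Fads1 was at 0.014 (SE 0.051, adjusted p = 0.838) and Elovl6, which extends palmitate, at 0.066 (SE 0.082, adjusted p = 0.521).

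Within each library, these paralogs shifted against each other. The ratio of Scd1 to Scd2 was 0.444, 0.446 and 0.423 in sgcontrol and 0.509, 0.531 and 0.516 in sgkiaa1522 1, 2 and 3, a log2 difference of 0.24. The ratio of Fads1 to Fads2 was 2.60, 2.60 and 2.46 in sgcontrol and 3.41, 3.44 and 3.30 in the other group, a log2 difference of 0.41. Neither ratio overlapped between groups, and both reached the smallest p that 3 against 3 allows (exact two-sided permutation test, p = 0.1, and 0.2 after Benjamini-Hochberg adjustment over the 4 ratios). A ratio within a library does not depend on the scaling between libraries.

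Summed over a role, the levels show how much transcript each route carried. The mevalonate arm summed to 819, 832 and 901 CPM in sgcontrol and to 498, 557 and 529 CPM in sgkiaa1522 1, 2 and 3, which is 62.0% of the control mean. The post-squalene arm summed to 895, 872 and 876 CPM against 674, 687 and 703 CPM, or 78.1%. Neither arm overlapped between groups. Acly, Acaca and Fasn, the fatty acid synthesis role, summed to 455, 394 and 389 CPM against 613, 570.4 and 571 CPM, or 141.7% of control (134.7% as TPM), with no overlap. Without Acly, which was not called, Acaca and Fasn summed to 247, 209 and 200.0 CPM against 430.4, 378 and 375 CPM, or 180.3% of control. Weighted by length, as TPM, both sterol arms together stood at 74.5% of control (70.2% in CPM) and Acaca with Fasn at 192%. The SREBP controls stood at 86.3%, the carriers and LXR genes at 108.5%, and elongases and desaturases at 89.7% of control in CPM. These sums describe the libraries and were not tested, since large members dominate them.

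**Figure D3:**
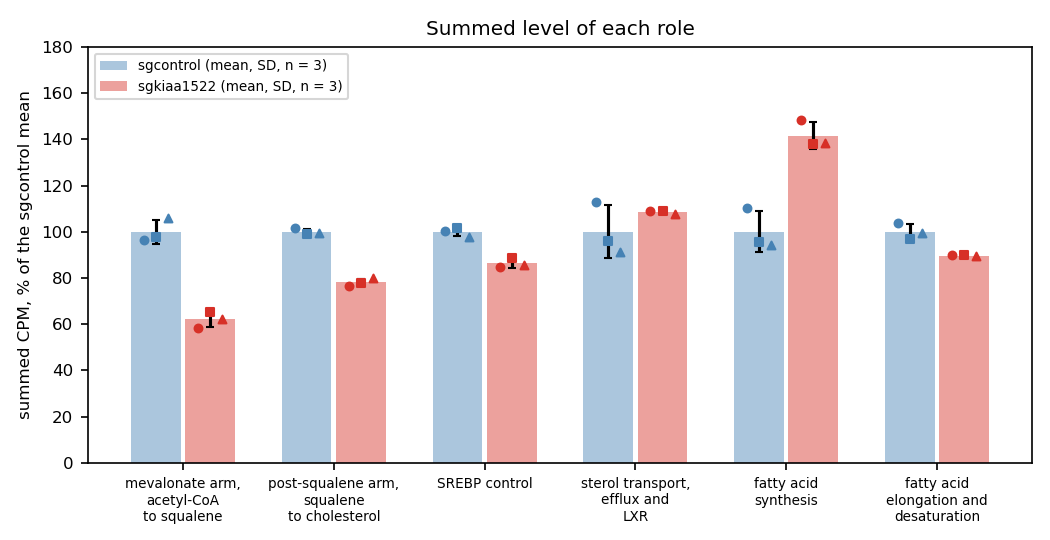
Summed CPM of each role as percent of the sgcontrol mean. Bars are means with SD (n = 3), symbols are libraries 1 to 3, blue for sgcontrol and red for the libraries labelled sgkiaa1522. The mevalonate arm stands at 62.0% and the post-squalene arm at 78.1% of control with no overlap, and fatty acid synthesis, with Acly, stands at 141.7%.

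By TPM in sgcontrol, Scd2, Scd1, Srebf2 (188 ± 6.58), Insig1 (158 ± 8.55) and Fads1 (147 ± 2.86) were the highest members, and each was above the next in every sgcontrol library. From Pmvk (123 ± 16.7) down through Acat2 (118 ± 5.48), Fdps (109 ± 9.68) and Hmgcs1 (106 ± 11.8) to Cyp51 (99.99 ± 3.53), neighbours overlapped and have no order. Fasn stood at 46.5 ± 5.94 TPM, Npc1 at 9.29 ± 1.10 and Acaca, the lowest detected member, at 3.10 ± 0.711. Under the sgkiaa1522 label Fasn stood at 89.3 ± 7.75 TPM, above Fdps at 53.1 ± 3.21, an order opposite to that in sgcontrol.

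The thresholds were close for several members. Nearest inside the p threshold were Srebf2, Sc5d and Idi1, with adjusted p = 0.0406, 0.0374 and 0.0362 by the edgeR quasi-likelihood test with Benjamini-Hochberg adjustment. Nearest outside were Abca1, Nr1h2 and Insig2, with adjusted p = 0.0580, 0.119 and 0.158. Nearest inside the fold threshold were Lss, Fdps and Idi1, and nearest outside were Mvk (-0.98), Fdft1 (-0.95) and Npc1 (0.93). Of the 26 called members, 20 were called in every alternative run, the loss of any 1 library included, and the 6 that were not are Mvd, Idi1, Sc5d, Srebf1, Srebf2 and Insig1.

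Fold changes over all tested genes moved with transcript length. In 8 bins of the 10024 tested genes with a known transcript, the median log2 fold change went from -0.21 for longest transcripts of up to 1586 bases to 0.22 for those from 6388 bases. Fasn (10050 bases), Acaca (9513 bases) and Abca1 (10262 bases) lie in the longest bin, Npc1 (5756 bases) in the next, and Pmvk (1194 bases) in the shortest. Some members went against that trend: Lss (6992 bases) fell although it lies in the longest bin, and Mvd (1833 bases) rose among short ones. A fit that removed a smooth trend on length and GC content in each library, an alternative chosen after seeing the data, called 22 members lower and 5 higher. In that fit the log2 fold change was 0.64 for Fasn, 0.61 for Acaca, 0.81 for Npc1, -0.86 for Mvk, -0.70 for Pmvk, 0.53 for Mvd, -1.07 for Fdps, -1.18 for Idi1 and -1.21 for Lss, all still called with edgeR. The rises of Fasn, Acaca and Npc1 were smaller there, and the study's threshold was passed by 3 lower and 0 higher members as before.

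**Figure D4:**
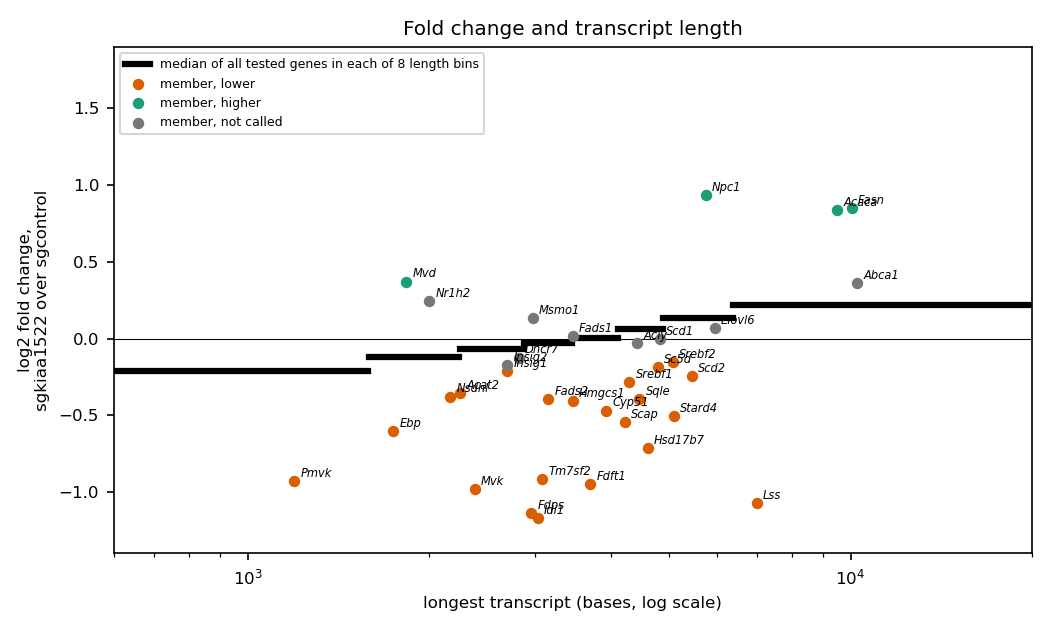
Log2 fold change against the longest transcript of the gene (log axis, bases). Points are members coloured by call, and black bars are the median over all tested genes in 8 length bins, running from -0.21 to 0.22. Lss falls and Mvd rises against the trend of their bins, whereas Npc1, Acaca and Fasn rise by more than the median of theirs.

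The rest of the pathways was examined through 43 further genes listed by role, of which 41 were tested. Of these, 10 were lower (24.4%) and 10 higher (24.4%), against 26.3% of all tested genes each way, with a median log2 fold change of -0.051. In the list of isoprenoid and sterol enzymes, which also holds the non-enzyme Tmem97 and the ubiquitin ligase Rnf145, 2 of 10 were lower. The 3 higher ones there were Ggps1, Tmem97 and Rnf145. Among genes of SREBP processing and sterol handling 4 of 13 were lower and 2 higher. Among genes of fatty acid supply, elongation and activation 4 of 18 were lower and 5 higher. One passed the study's threshold. Acss2, the cytosolic acetyl-CoA synthetase that makes acetyl-CoA from acetate, was read at 42.8, 43.3 and 39.8 CPM in sgcontrol and 17.5, 11.8 and 12.9 CPM in sgkiaa1522 1, 2 and 3. Its groups lay far apart, with a log2 fold change of -1.59 (SE 0.15, adjusted p = 1.74e-04).

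Besides Acss2, the called falls were Acat1, Coq2, Mbtps1, Soat1, Nr1h3, Lpcat3, Me1, Aacs and Tecr, with log2 fold changes of -0.94 to -0.22, and the called rises were Ggps1, Tmem97, Rnf145, Erlin1, Osbp, Mid1ip1, Elovl5, Acsl1, Acsl4 and Gpam, at 0.29 to 0.94. Of these, Coq2, Mbtps1, Nr1h3, Me1, Tecr, Ggps1 and Acsl1 lost their call in at least 1 of the alternative fits. Those described next were chosen after their values were seen. Acat1, the mitochondrial thiolase, fell from 301, 295 and 293 CPM to 154, 155 and 152 CPM, a log2 fold change of -0.94 (SE 0.053, adjusted p = 2.68e-05), beside -0.36 for its cytosolic counterpart Acat2, and the difference between them was not tested. Rnf145, a ubiquitin ligase of the endoplasmic reticulum linked to sterol control, rose at 0.94 (adjusted p = 7.53e-05), and Tmem97, a sterol-responsive binding partner of NPC1, rose at 0.89 (adjusted p = 2.43e-04). Mid1ip1, an activator of acetyl-CoA carboxylase, was read at 27.4, 25.0 and 27.5 CPM in sgcontrol and 51.2, 47.3 and 49.2 CPM in the other group and rose at 0.89 (SE 0.08, adjusted p = 1.51e-04), in the same direction as Acaca itself. Gm14493 on the opposite strand shares 25.5% of the exon bases of Mid1ip1. Osbp, an oxysterol-binding carrier between the endoplasmic reticulum and the Golgi, rose at 0.64 (adjusted p = 2.33e-04), in the direction of Npc1 and not of Stard4. Nr1h3, which encodes LXR alpha, was read at 10.1 to 13.3 CPM in sgcontrol and 6.60 to 9.15 CPM in the other group, with a log2 fold change of -0.62 (SE 0.17, adjusted p = 0.0163), and was not called without sgcontrol 2 (0.0568) or sgkiaa1522 3 (0.0566). Soat1, which esterifies cholesterol for storage, fell at -0.42 (adjusted p = 0.00386), and Aacs, the cytosolic acetoacetyl-CoA synthetase, at -0.59 (adjusted p = 0.00206).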

How the data were processed

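The authors sequenced RNA of 889 cells in 3 sgcontrol and 3 sgkiaa1522 libraries, mapped reads to GRCm38 and deposited raw counts per Ensembl gene. The submitters' processing notes name HISAT2 2.0.4 and StringTie 1.3.0. The use of strand and the annotation release are not given in the sources used here. Groups and replicate numbers came from the labels. The members and gene lists were chosen with earlier results of these data known.

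The 10046 genes whose counts summed to over 500 (holding 99.5% to 99.6% of each library's counts) were fitted with edgeR 4.0.16 (R 4.3.3), TMM factors of 0.989 to 1.01, the quasi-likelihood test and no covariate. Benjamini-Hochberg adjustment ran over all of them. Calls used an adjusted p of at most 0.05, and the study's threshold also asked for a log2 fold change of 1 or more in either direction. The fits were tested on simulated data. CPM used TMM library sizes and TPM the exon lengths of GENCODE M21, which gave gene positions, overlaps, transcript lengths and GC content. Intervals and floors cover counting error only. Ratios were compared with exact permutation tests (SciPy 1.17.1). Named were all tested members, C77080 and other pathway genes past the study's threshold, with values in each library for the threshold members, the SREBP controls and the 3 members nearest each side of a threshold, as well as for others the results turn on.

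Alternatives were RLE size factors, library size alone, DESeq2 1.42.0, the likelihood ratio test, other filters and thresholds, a replicate block, each library left out, log2(CPM + 1) for ratios, TPM for sums, a longer promoter window, and, chosen after seeing the data, an offset for transcript length and GC content fitted with mgcv 1.9.3. Promoters are those of RefSeq.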

Additional observations from a re-analysis of the deposited data

How the results depend on the processing

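Of the members' summary results, the counts called lower (17 to 22) and higher (3 to 5) stayed within 1.5 times the reported 22 and 4 under every alternative, the stricter adjusted p of 0.01 (17 and 3) included. With a fold threshold of 1.5 in place of 2, 9 members passed lower and 3 higher. The shares of all tested genes at that threshold and at the adjusted p of 0.01 were not computed, so those counts have no background beside them. Leaving out 1 library moved the members past the study's threshold to between 1 and 5 lower and between 0 and 2 higher, the other pathway genes past it upward to between 0 and 1, and the members' median log2 fold change to between -0.34 and -0.24. Without sgcontrol 1, Mvk, Pmvk and Fdft1 passed the study's threshold downward and Acaca and Npc1 upward, and without sgkiaa1522 1 Fdps alone passed it. With the offset for length and GC content, alone or with the replicate block, 2 other pathway genes passed it upward. As TPM in place of CPM, the log2 ratio of the summed levels was -0.54 for the mevalonate arm, -0.27 for the post-squalene arm, -0.43 for both arms, -0.12 for the SREBP controls and -0.062 for elongases and desaturases. Signs turned for values that were not called: leaving out 1 library, Msmo1 (between -0.00034 and 0.28), Dhcr7 (between -0.34 and 0.060), Acly (between -0.067 and 0.021), Scd1 (between -0.028 and 0.031) and the log2 ratio of Insig1 to Insig2 (between -0.077 and 0.021), and otherwise Fads1 (-0.00095 with library size alone), Elovl6 (-0.060 with the offset and -0.061 with the offset and the block) and Scd1 (0.0028 with RLE factors and with DESeq2, 0.0046 with every gene of at least 1 count, 0.0095 with filterByExpr). The cause was not tested. Same-numbered libraries did not deviate together (correlations of -0.24 to -0.053, and 0 libraries matched their own number best), so the numbers were not taken as pairs. With the replicate block 19 members were lower and 4 higher: Mvd (adjusted p = 0.0845), Sc5d (0.121), Srebf2 (0.135) and Insig1 (0.0847) were no longer called and Abca1 was (0.0447), by edgeR's quasi-likelihood test. Depth bounded Abcg1, at 0 counts, to at most 0.247 CPM in any library.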
